A study of Mus musculus with 4 samples.

Results

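The cells described here are the liver sinusoidal endothelial cells (LSEC) of mouse liver tumours, chosen by their own measured UMI counts of 12 genes in single-cell RNA sequencing data. A cell was taken when it had UMIs (unique molecular identifiers, which count single RNA molecules) of at least 2 of the endothelial genes Cdh5, Pecam1, Kdr, Egfl7 and Ptprb and of at least 2 of the sinusoidal genes Clec4g, Stab2, Lyve1, Oit3 and Fcgr2b. It also had no UMI of the T cell gene Cd3e or the macrophage gene C1qa. Of 25715 cells kept in 3 libraries, 216 met this rule: 45 in KLF2 replicate 1, 79 in KLF2 replicate 2 and 92 in vector replicate 2.

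The KLF2 tumours came from male C57BL/6 mice that received plasmids for c-MYC, AKT and KLF2, each behind the EF1α promoter in the pT3 backbone, by hydrodynamic tail vein injection at 8 weeks of age. The vector tumours came from mice given the same c-MYC and AKT plasmids with an empty pT3 plasmid. Both groups also received SB100X, the transposase that inserts the plasmids into the genome, and tumours were taken 10 weeks later, at 18 weeks of age, 1 mouse per library. The labels give no KLF2 expression by cell type, and the injected plasmids are known to enter mainly hepatocytes, so the tumours carry the plasmid genes while LSEC belong to the host. Vector replicate 1 was not analysed here beyond its gene list, so every comparison sets 2 KLF2 libraries against 1 vector library, and no difference between vector mice could be measured.

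LSEC form the wall of the liver sinusoids. They are flat, fenestrated cells without a continuous basement membrane, and they clear proteins and particles from the blood through scavenger receptors such as the stabilins and the mannose receptor. They also send paracrine (angiocrine) signals to hepatocytes, among them Wnt ligands, which maintain the zonation of the liver lobule, and Hgf. In chronic liver disease and in tumours they can lose these features and take on those of continuous capillaries, a process called capillarisation. KLF2 is a transcription factor induced by blood flow in endothelium.

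LSEC transcripts summed to 544744 and 565264 UMIs in KLF2 replicates 1 and 2 and to 620004 UMIs in vector replicate 2, with a median cell of 6515, 5016 and 5446.5 UMIs. Mitochondrial transcripts were a median of 0.891% and 0.804% of the UMIs of KLF2 LSEC and 10.6% in vector LSEC. This gap was one of whole libraries. The medians over all cells were 0.223% and 0.345% in KLF2 replicates 1 and 2 and 11.9% in vector replicate 2, and those of T cells 0.185%, 0.209% and 11.2%. A few cells stood apart. In KLF2 replicate 1, 3 cells of 30782 to 112788 UMIs held 36.6% of all LSEC UMIs, and in KLF2 replicate 2, 2 cells of 23134 and 82631 UMIs held 18.7%, although the 10 gate genes made up less than 0.1% of their UMIs. In vector replicate 2, 1 such cell held 1.22%. Results are therefore given for all LSEC, and many of them again without these 6 cells. That version keeps a KLF2 replicate 1 cell of 70082 UMIs with 0.354% of gate genes. An adjusted p with no version named is for all LSEC. Another 2 cells in each KLF2 library, and 0 of 92 in the vector library (which allows a share of up to 3.26%), had UMIs of the lymphatic genes Mmrn1 or Ccl21a. Cell names that recur in 2 libraries (550 to 1146 per pair) are running names and not barcode sequences, so shared barcodes could not be counted.

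The sinusoidal label was checked against 15 LSEC genes that the rule did not use. Gpr182, an atypical chemokine receptor of sinusoids, stood at 654 and 545 CPM (the gene's UMIs over all UMIs of the class in that library, times 1000000) in LSEC of KLF2 replicates 1 and 2 and at 421 CPM in vector LSEC. Endothelial cells with none of the 5 sinusoidal genes had 1.77, 14.96 and 42.5 CPM in the same order, and T cells (at least 2 of Cd3d, Cd3e, Cd3g and Trac, no UMI of the endothelial genes) had 6.09, 5.24 and 4.82 CPM. Maf, a transcription factor of LSEC, stood at 808 and 570 CPM in KLF2 LSEC and 465 CPM in vector LSEC, against 23, 24.1 and 113 CPM in the other endothelial cells. The scavenger receptor Stab1 had 464 and 400 CPM in KLF2 LSEC and 618 CPM in vector LSEC. All 15 genes together summed to 4525 and 3689 CPM in KLF2 LSEC and 2744 CPM in vector LSEC. In the other endothelial cells they summed to 261, 319 and 818 CPM in the same order. In T cells they summed to 179, 166 and 420 CPM. The sum was thus higher in LSEC than in both other classes in all 3 libraries, but by a smaller factor in the vector library. The 18 capillary and tumour vessel genes summed to 1386 and 2289 CPM in KLF2 LSEC and 2535 CPM in vector LSEC. Their sums in the other endothelial cells were 3493, 3023 and 3635 CPM. The rule also sat on different ground in each library. At its threshold, cells with exactly 2 sinusoidal genes were 9 of 45 and 26 of 79 of the KLF2 LSEC and 64 of 92 of the vector LSEC, and 19, 39 and 262 endothelial cells lay just outside with 1 such gene. All 5 sinusoidal genes were found in 21 and 19 KLF2 LSEC and in 1 vector LSEC.

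**Figure D1:**
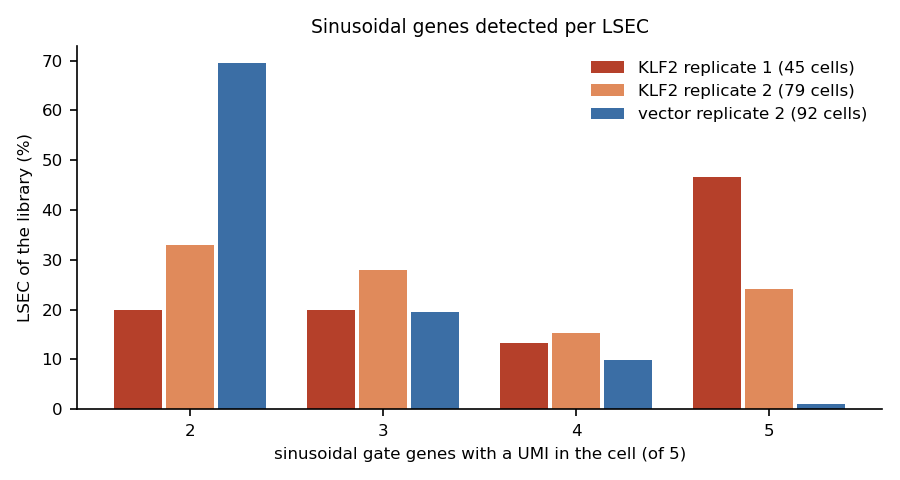
Share of the LSEC of each library (y axis, %) by the number of the 5 sinusoidal gate genes with a UMI in the cell (x axis). Bars are KLF2 replicate 1, KLF2 replicate 2 and vector replicate 2. In the vector library 69.6% of the cells sat at the minimum of 2 genes, against 20% and 32.9% in the KLF2 libraries.

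The gate genes themselves followed suit, as values with no test because the rule used them. Clec4g, a C-type lectin of sinusoids, stood at 558 and 578 CPM in KLF2 LSEC and at 150 CPM in vector LSEC. Lyve1, a hyaluronan receptor, had 391 and 414 CPM in KLF2 LSEC and 100 CPM in vector LSEC. Fcgr2b, an inhibitory Fc receptor through which LSEC take up immune complexes, had 435 and 402 CPM in KLF2 LSEC and 109.7 CPM in vector LSEC. The pan-endothelial gate genes did not move together: Ptprb had 964 and 713 CPM in KLF2 LSEC and 534 CPM in vector LSEC, while Pecam1 had 314 and 311 CPM in KLF2 LSEC and 531 CPM in vector LSEC.

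LSEC made up 0.725% (Wilson 95% interval 0.542 to 0.968) and 0.712% (0.571 to 0.886) of the cells in KLF2 replicates 1 and 2 and 1.09% (0.894 to 1.34) in vector replicate 2. Among endothelial cells their share ran the other way, at 36.3% (28.4 to 45.0) and 34.5% (28.6 to 40.9) in the KLF2 libraries and 6.75% (5.54 to 8.21) in the vector library. The vector library held far more endothelial cells without sinusoidal genes, 1008 against 60 and 111. The order among all cells was not stable. With at least 3 sinusoidal genes the shares were 0.580% and 0.477% in KLF2 tumours and 0.333% in the vector tumour, and with each cell thinned to 1000 UMIs (270 shallower vector cells left out) they were 0.403%, 0.306% and 0.197%. The share of endothelial cells stayed higher in both KLF2 libraries under each rule tried, with 29.0% and 23.1% against 2.06% for 3 genes and 33.8% and 24.5% against 1.87% after thinning. The intervals hold counting error alone; how mice vary is not in them.

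**Figure D2:**
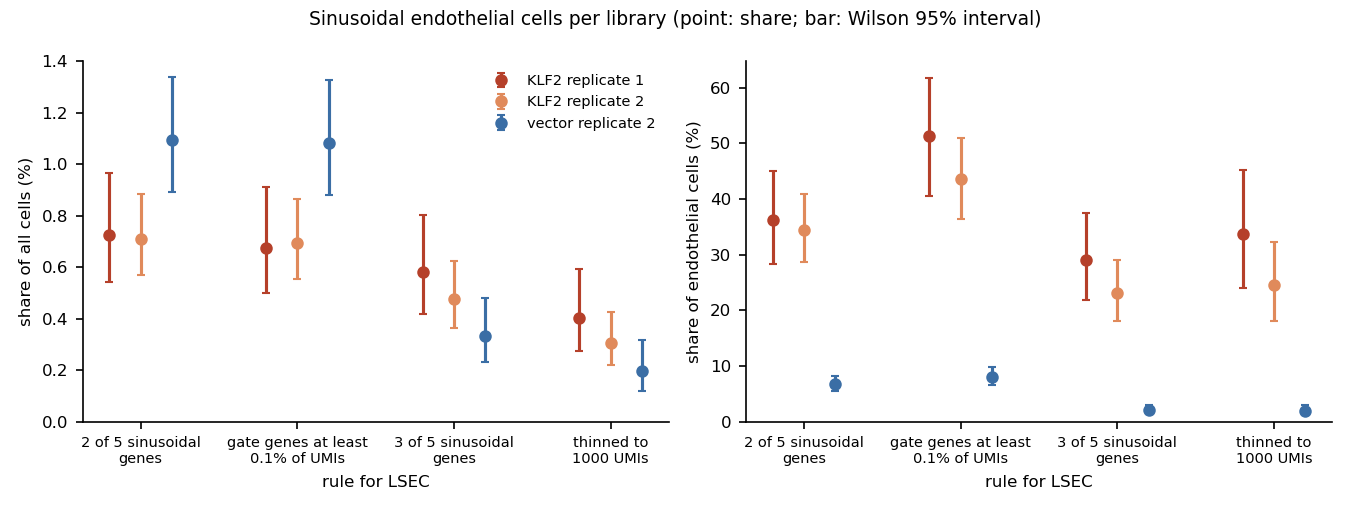
LSEC as a share of all cells (left, %) and of endothelial cells (right, %) under 4 rules for LSEC. Points are the libraries and bars are Wilson 95% intervals. The share of all cells is lower in KLF2 than in vector under the first pair of rules, where the intervals of KLF2 replicate 1 and vector overlap. It is higher under the last pair, where the intervals of both KLF2 libraries overlap that of vector. The share of endothelial cells is higher in KLF2 under all 4.

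To ask which genes differed between LSEC of KLF2 and vector tumours, UMIs were summed per library and tested with edgeR's quasi-likelihood test with Benjamini-Hochberg adjustment. Of 7898 genes tested, 617 (7.81%) were higher and 610 (7.72%) lower in KLF2 LSEC at an adjusted p of 0.05. Without the 6 cells with few gate UMIs, 202 (3.02%) of 6684 genes were higher and 168 (2.51%) lower, and 200 and 163 of these were also called with all cells. Without the 10 cells of 20000 or more UMIs, 436 (6.57%) of 6632 genes were higher and 361 (5.44%) lower. CPM are before TMM scaling, whose factors of 1.16 and 0.985 in the KLF2 libraries and 0.877 in the vector library place the log2 changes below the ratios of the CPM. The KLF2 libraries alone supply the spread between mice, and the adjusted p-values below are from this test. Under DESeq2, another test of the same sums, 59 of 106 named genes that had passed lost their call. Among them were Wnt2, Hgf, Nos3, Sele, Selp, Vcam1, Msr1, Esm1, Bmpr2 and Tap1. List counts below stand beside these shares of all genes: 7.81% higher and 7.72% lower (3.02% and 2.51% without the 6 cells).

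Levels in T cells of the same library are given beside the results, because RNA that is free in the suspension or captured along with another cell would appear in them too. T cells also make many of these RNAs themselves, and the part of free RNA or of doublets in each call was not tested. These T cells were chosen for having no UMI of the endothelial gate genes. That choice may also leave out cells with other endothelial RNA. Of the 617 genes higher in KLF2 LSEC, 447 (72.4%) had a mean level in KLF2 T cells of at least 50% of that in KLF2 LSEC, as did 80.1% of all genes tested. Of the 610 genes lower in KLF2 LSEC, 329 (53.9%) stood in vector T cells at 50% or more of their vector LSEC level, as did 76.1% of all genes tested. Markers of other cell types also differed in level between the libraries. The 8 T and NK cell genes summed to 5.51 and 15.9 CPM in KLF2 LSEC (2 and 4 genes with a UMI) and to 487 CPM in vector LSEC (all 8), and the 10 hepatocyte genes to 49.6 and 46.0 CPM (6 and 9 genes) and 400 CPM (all 10). The 7 large vessel endothelial genes, Vwf among them, summed to 244 and 205 CPM in KLF2 LSEC and 784 CPM in vector LSEC. At least 2 of these genes were found in 4 of 45 and 10 of 79 KLF2 LSEC and 31 of 92 vector LSEC. In the other endothelial cells they summed to 650, 952 and 538 CPM in KLF2 replicates 1 and 2 and vector replicate 2. Their part in the falls of other genes was not tested. The 5 cholangiocyte genes ran the other way, with 130 and 265 CPM in KLF2 LSEC and 11.3 CPM in vector LSEC. Red cell genes reached 2111 CPM in LSEC of KLF2 replicate 1, where 1 cell of 13580 UMIs held 578 of 579 Hbb-bs UMIs, against 17.7 CPM in KLF2 replicate 2 and 53.2 CPM in vector LSEC. They stood at 4.06 CPM in the T cells of KLF2 replicate 1.

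**Figure D3:**
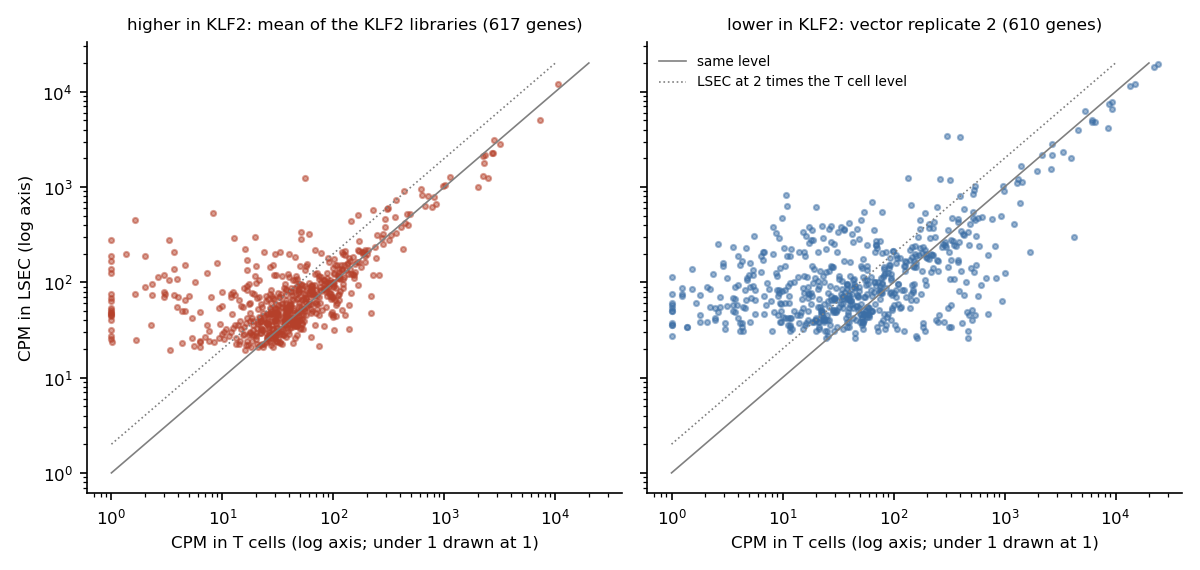
Level in LSEC (y axis, CPM, log scale) against level in T cells of the same libraries (x axis, CPM, log scale) for the 617 genes higher in KLF2 LSEC (left, mean of the KLF2 libraries) and the 610 genes lower (right, vector replicate 2). Points are genes, the solid line marks equal levels and the dotted line an LSEC level 2 times that in T cells. Most of the higher genes lie below the dotted line, and 329 of the lower genes do.

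The 12 steepest rises were found at like levels in T cells. Il31ra, a cytokine receptor subunit, had 334 and 502 CPM in KLF2 LSEC and no UMI in vector LSEC, at least 86.8-fold higher against a floor of 3 counts, and it had 369 and 509 CPM in KLF2 T cells against 0.138 CPM in vector T cells. Cmss1 stood at 9737 and 14554 CPM in KLF2 LSEC and 12.9 CPM in vector LSEC, and at 7866, 13247 and 9.09 CPM in the T cells of the same libraries. The other genes of this kind were Wif1 and Notum, which are secreted Wnt inhibitors, Prox1, a transcription factor of hepatocytes and lymphatic endothelium, and Bex1, Patl2, Prss56, Mt3, Cers6, Nkain2 and Stra6. Their KLF2 LSEC levels ran from 70.8 CPM (Mt3, replicate 2) to 294 CPM (Wif1, replicate 1), and none had a UMI in vector LSEC. Each had between 44.6 CPM (Stra6, replicate 1) and 292 CPM (Patl2, replicate 2) in KLF2 T cells, and none of the 12 rises passed the test against the change in T cells without the 6 cells (adjusted p from 0.054 to 1), while Mt3, a metallothionein, passed it with all cells (adjusted p = 0.0183). For some of these genes 1 low-gate cell per KLF2 library, of 112788 and 82631 UMIs, held much of the LSEC level. These cells held 100 of 160 and 89 of 140 Wif1 UMIs, and without them Wif1 had 139 and 106 CPM. They also held 54 of 111 and 62 of 92 Bex1 UMIs and 27 of 45 and 32 of 54 Stra6 UMIs. For Patl2 the top cell held 7 of 60 and 8 of 72 UMIs. Of the plasmid genes, Myc had 246 and 218 CPM in KLF2 LSEC and 21 CPM in vector LSEC, beside 235, 236 and 30.0 CPM in T cells.

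The LSEC identity genes that rose were near 0, at 10.1 CPM or less, in T cells chosen for having no UMI of the endothelial gate genes. Of the 15 genes, all tested, 5 rose and 0 fell, the same 5 without the 6 cells, and the list's median log2 change was 0.67 against 0.09 over all genes (1.16 against 0.06 without the 6 cells). Adam23, a cell adhesion protein of the ADAM family (chromosome 1, 63445891 to 63596276, plus strand, GRCm38), had 222 and 173 CPM in KLF2 LSEC and 19.4 CPM in vector LSEC, a log2 change of 3.06 (SE 0.46, adjusted p = 1.68e-09), with 2.03, 0.654 and 1.52 CPM in T cells. Clec1b, the platelet and sinusoidal C-type lectin CLEC-2, had 60.6 and 76.1 CPM in KLF2 LSEC and 6.45 CPM in vector LSEC (log2 change 3.11, SE 0.63, adjusted p = 2.2e-05). Both KLF2 libraries stood well above the vector library for each gene.

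Dnase1l3, a secreted nuclease that degrades DNA in chromatin, had 479 and 425 CPM in KLF2 LSEC and 134 CPM in vector LSEC (log2 change 1.48, SE 0.37, adjusted p = 0.00101). A Dnase1l3 UMI was found in 68.9% and 69.6% of KLF2 LSEC and in 42.4% of vector LSEC, against 0%, 1.84% and 1.61% of T cells, whose median depths were 5552, 4111 and 3361 UMIs. Mrc1, the mannose receptor, had 308 and 244 CPM in KLF2 LSEC and 95.2 CPM in vector LSEC (log2 change 1.26, SE 0.38, adjusted p = 0.00867). Plxnc1, a semaphorin receptor, had 152 and 170 CPM in KLF2 LSEC and 46.8 CPM in vector LSEC (log2 change 1.52, adjusted p = 0.00203). With DESeq2 Adam23 kept its call, while the adjusted p was 0.117 for Clec1b, 0.0521 for Dnase1l3, 0.306 for Plxnc1 and 0.28 for Mrc1. With 45 cells per library it was 0.0743 for Plxnc1 and 0.0824 for Mrc1. The other 10 identity genes did not pass. F8, clotting factor VIII, which LSEC make, had 173 and 119 CPM in KLF2 LSEC and 61.3 CPM in vector LSEC (adjusted p = 0.0716), and Flt4, the receptor for VEGF-C, had 230 and 228 CPM and 102 CPM (adjusted p = 0.0791). Gata4, a transcription factor that LSEC need to form, had 80.8 and 76.1 CPM in KLF2 LSEC and 71.0 CPM in vector LSEC (log2 change -0.13 after scaling, adjusted p = 0.87).

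The bases before the RefSeq starts of the 4 risen identity genes found in the promoter table used are shown because these genes moved together. Capitals mark CACCC, the core bound by KLF factors, and GATAA, bound by GATA factors, on either strand (GGGTG and TTATC on the strand printed). Each is 250 bases of GRCm38.p6, 5′ to 3′ on the gene's strand, at chr1:63445641-63445890 (plus) for Adam23, chr6:129397047-129397296 (plus) for Clec1b, chr2:14229164-14229413 (plus) for Mrc1 and chr10:94944846-94945095 (minus) for Plxnc1.
Adam23: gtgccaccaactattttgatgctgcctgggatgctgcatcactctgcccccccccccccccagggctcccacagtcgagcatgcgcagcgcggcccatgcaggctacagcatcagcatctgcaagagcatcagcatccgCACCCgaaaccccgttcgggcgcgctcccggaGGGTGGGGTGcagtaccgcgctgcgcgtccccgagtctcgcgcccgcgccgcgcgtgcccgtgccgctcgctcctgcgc
Clec1b: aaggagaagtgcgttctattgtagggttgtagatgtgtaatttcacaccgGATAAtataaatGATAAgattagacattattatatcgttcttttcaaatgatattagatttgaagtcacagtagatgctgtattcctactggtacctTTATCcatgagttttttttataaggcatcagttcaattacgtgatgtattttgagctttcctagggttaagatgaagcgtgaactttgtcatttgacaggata
Mrc1: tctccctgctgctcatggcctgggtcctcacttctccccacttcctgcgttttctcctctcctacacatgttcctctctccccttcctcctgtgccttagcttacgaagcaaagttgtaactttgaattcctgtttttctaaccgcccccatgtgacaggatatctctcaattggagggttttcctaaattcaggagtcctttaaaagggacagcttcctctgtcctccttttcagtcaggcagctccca
Plxnc1: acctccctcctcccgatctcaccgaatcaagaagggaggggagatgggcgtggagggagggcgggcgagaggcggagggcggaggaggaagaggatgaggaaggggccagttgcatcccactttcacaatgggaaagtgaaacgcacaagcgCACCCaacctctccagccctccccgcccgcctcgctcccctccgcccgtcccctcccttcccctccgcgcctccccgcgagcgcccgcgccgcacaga

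The CACCC letters occur 3 times in the Adam23 window, 1 time in that of Plxnc1 and 0 times in those of Clec1b and Mrc1, and 52.0% of all 32851 windows of this length hold them. GATAA occurs 3 times in the Clec1b window and 0 times in the others, and 22.6% of all windows hold it. A match is a description of these letters and not a bound site.

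**Figure D4:**
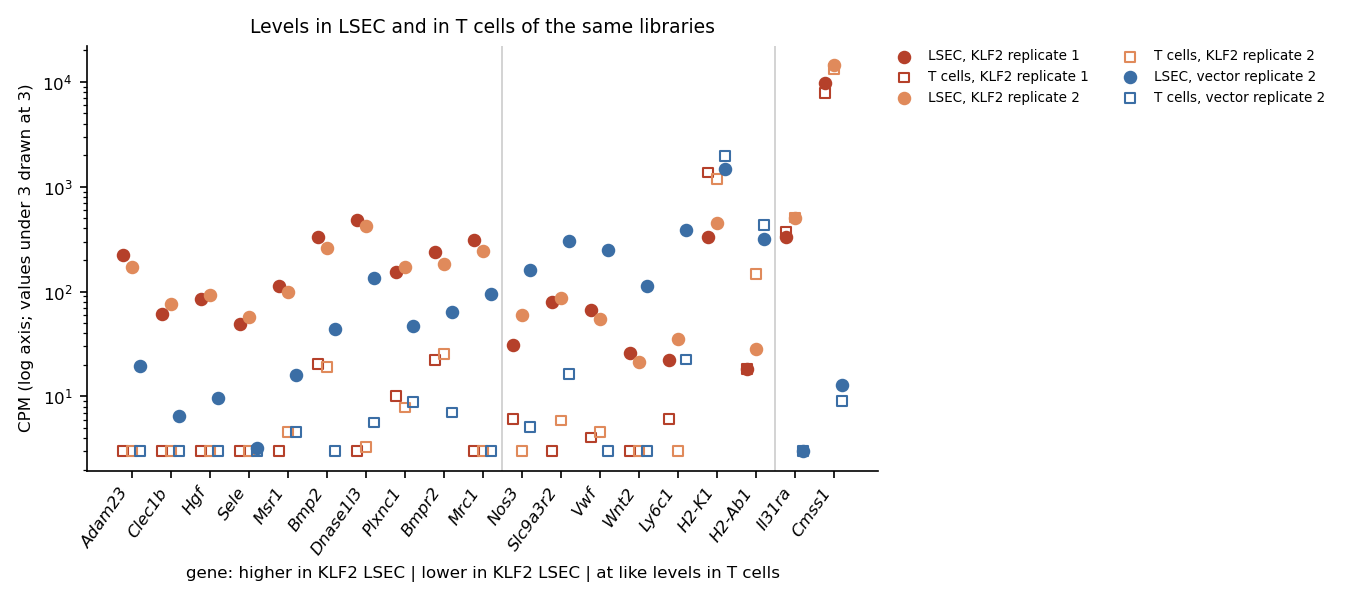
CPM (y axis, log scale, values under 3 drawn at 3) of 19 genes in LSEC (filled circles) and in T cells (open squares) of KLF2 replicate 1, KLF2 replicate 2 and vector replicate 2. The first 10 genes are higher in both KLF2 libraries with T cells far below, the next 7 are lower, with T cells at about the LSEC level or above it for H2-K1 and H2-Ab1, and Il31ra and Cmss1 have like levels in LSEC and T cells.

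Angiocrine factors split. Of 13 tested, 5 rose and 5 fell (4 and 1 without the 6 cells), with a median log2 change of 0.79. Bmp2, which with Bmp6 tells hepatocytes to make the iron hormone hepcidin, had 332 and 260.1 CPM in KLF2 LSEC and 43.5 CPM in vector LSEC (log2 change 2.48, SE 0.42, adjusted p = 1.12e-07, and 0.0152 without the 6 cells). A Bmp2 UMI was found in 71.1% and 60.8% of KLF2 LSEC and 15.2% of vector LSEC, against 7.58%, 7.72% and 0.517% of T cells. Hgf, a mitogen of hepatocytes, had 84.4 and 92.0 CPM in KLF2 LSEC and 9.68 CPM in vector LSEC (log2 change 2.90, SE 0.55, adjusted p = 4.14e-06), with about 2 CPM in the T cells of each library. Inhbb, an activin subunit, had 138 and 134 CPM in KLF2 LSEC and 50 CPM in vector LSEC, and Angpt2, the Tie2 ligand that destabilises vessels, had 31.2 and 56.6 CPM and 6.45 CPM. Kitl rose with all cells and had an adjusted p of 0.0825 without the 6 cells.

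The Wnt ligands went the other way. Wnt2 (chromosome 6, 17988940 to 18030585, minus strand), made by the endothelium around the central vein, had 25.7 and 21.2 CPM in KLF2 LSEC and 113 CPM in vector LSEC. It fell by 2.53 on the log2 scale (SE 0.41, adjusted p = 4.69e-08, and 0.0198 without the 6 cells), with 0, 0 and 0.827 CPM in T cells. Its partner Wnt9b had 7.34 and 10.6 CPM in KLF2 LSEC and 50 CPM in vector LSEC (adjusted p = 0.000101, and 0.0502 without the 6 cells). Rspo3, which amplifies Wnt signals, had 22 and 149 CPM in KLF2 LSEC and 235 CPM in vector LSEC, so its fall rested mostly on replicate 1 (adjusted p = 2.25e-05, and 0.323 without the 6 cells). Of the 8 genes of the pericentral list, which shares the Wnt ligands and Rspo3, 5 fell and Selp, the adhesion receptor P-selectin, rose (1 fall and 1 rise without the 6 cells). Of 8 periportal genes, Msr1, Ntn4 and Adam23 rose and Ltbp4 and Clu fell (Msr1 and Adam23 rose and 0 fell without the 6 cells). Msr1, a macrophage and endothelial scavenger receptor, had 112 and 99.1 CPM in KLF2 LSEC and 16.1 CPM in vector LSEC (adjusted p = 1.24e-05).

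Of 16 endocytosis and lysosome genes, Mrc1 and Ctsl rose and 0 fell, beside 7.81% and 7.72% of all genes tested. The list's median log2 change was 0.25, against 0.09 over all genes. Ctsl, the lysosomal protease cathepsin L, had 345 and 322 CPM in KLF2 LSEC and 132 CPM in vector LSEC (adjusted p = 0.0299).

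Of 11 leukocyte adhesion and junction genes tested, Vcam1, Sele, Selp and Cd44 rose with and without the 6 cells, while Icam2, Mcam and F11r fell with all cells and 0 fell without the 6. The median log2 change of the list was -0.43, and 0.12 without the 6 cells. Sele, E-selectin, had 49.6 and 56.6 CPM in KLF2 LSEC and 3.23 CPM in vector LSEC (log2 change 3.70, SE 0.75, adjusted p = 2.24e-05), with at most 1.31 CPM in T cells. Vcam1 had 97.3 and 119 CPM in KLF2 LSEC and 40.3 CPM in vector LSEC (adjusted p = 0.0351), and Selp had 152 and 122 CPM and 37.1 CPM (adjusted p = 0.00161). Cd44, the hyaluronan receptor, had 184 and 248 CPM in KLF2 LSEC and 12.9 CPM in vector LSEC, but T cells had 177, 234 and 87.6 CPM.

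Capillary and tumour vessel genes moved in both directions, with 4 of 18 higher and 6 lower (3 and 3 of 17 without the 6 cells). Ly6c1, a surface protein of capillary endothelium, had 22 and 35.4 CPM in KLF2 LSEC and 389 CPM in vector LSEC, and fell by 4.01 on the log2 scale (SE 0.37, adjusted p = 4.55e-25, and 0.00198 without the 6 cells). A Ly6c1 UMI was found in 2.22% and 7.59% of KLF2 LSEC and 43.5% of vector LSEC, against 4.55%, 0.735% and 8.62% of T cells. Vwf, von Willebrand factor, had 66.1 and 54.8 CPM in KLF2 LSEC and 250 CPM in vector LSEC (log2 change -2.32, SE 0.34, adjusted p = 1.01e-09). Rgcc had 3.67 and 3.54 CPM in KLF2 LSEC and 46.8 CPM in vector LSEC, with 48.7, 31.4 and 56.1 CPM in T cells. The progenitor marker Cd34 fell with all cells, at 80.8 and 38.9 CPM in KLF2 LSEC and 189 CPM in vector LSEC, but had an adjusted p of 0.106 without the 6 cells. Those that rose were Esm1, a VEGF-induced proteoglycan of tip cells, with 93.6 and 99.1 CPM in KLF2 LSEC and 25.8 CPM in vector LSEC (adjusted p = 0.00302), and Angpt2, Ackr1 and Kcne3. Ackr1, the venular chemokine receptor, rested on 17, 13 and 1 UMIs.

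In KLF2 replicate 1 a single cell carried most transcripts of several capillary genes. The cell of 70082 UMIs, which had 4 sinusoidal genes, held 31 of 36 Vwf UMIs, 38 of 44 Cd34 UMIs and all 12 Ly6c1 UMIs of that library's LSEC, and 18 of 27 Sele UMIs. Without it the other 44 cells had 10.5 CPM of Vwf, 12.6 CPM of Cd34, 0 of Ly6c1 and 19.0 CPM of Sele. In vector LSEC the top cell held 44 of 155 Vwf UMIs. Without the cells of 20000 or more UMIs, all of these genes kept their calls, with log2 changes of -2.31 for Vwf, -2.45 for Cd34, -3.69 for Ly6c1 and 3.62 for Sele. In KLF2 replicate 2, 1 cell of 11499 UMIs with 2 sinusoidal genes held 32 of 56 Esm1, 16 of 32 Angpt2 and 22 of 64 Kcne3 UMIs. Leaving it out, that library had 43.3 CPM of Esm1 and 28.9 CPM of Angpt2. This cell stays in both versions with cells left out.

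The groups also held different shares of cells at the threshold of the rule. LSEC with exactly 2 sinusoidal genes had 0, 85.0 and 369 CPM of Ly6c1 and 12.9, 93.9 and 254 CPM of Vwf in KLF2 replicates 1 and 2 and vector replicate 2. Endothelial cells just outside the rule, with 1 sinusoidal gene, had 170, 59.7 and 452 CPM of Ly6c1 and 174, 122 and 110.5 CPM of Vwf in the same order. With at least 3 sinusoidal genes (36, 53 and 28 cells), 242 (4.43%) of 5458 genes were higher and 228 (4.18%) lower, and Ly6c1, Vwf, Wnt2, Adam23, Bmp2 and Dnase1l3 kept their calls. Under that rule Cd34 had an adjusted p above 0.05, as did the collagens below.

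Basement membrane calls were fewer without the deep cells. With all cells 6 of 14 genes were lower and 0 higher, against 0 and 0 of 14 without the 6 cells (766 of 6684 genes had an unadjusted p under 0.05 on the lower side there) and 0 of 11 with at least 3 sinusoidal genes. Their median log2 change was -0.65, and -0.21 without the 6 cells. Without cells of 20000 or more UMIs it was -0.382, and a call on the lower side remained. Col4a1, a chain of collagen IV, had 622 and 547 CPM in KLF2 LSEC and 1247 CPM in vector LSEC (adjusted p = 0.000176, and 0.111 without the 6 cells).

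Of 17 tested genes known to respond to KLF2 or to flow, 0 rose and 7 fell (3 without the 6 cells), with a median log2 change of -0.37. Klf2 itself (chromosome 8, 72319033 to 72321656, plus strand) had 233 and 435 CPM in KLF2 LSEC and 366 CPM in vector LSEC (log2 change -0.37, SE 0.34, adjusted p = 0.512), so the vector value lay between those of the KLF2 libraries. T cells had 382, 399 and 548 CPM. These counts do not separate the endogenous gene from the plasmid.

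Nos3, the endothelial nitric oxide synthase, had 31.2 and 60.1 CPM in KLF2 LSEC and 160 CPM in vector LSEC, and fell by 2.05 on the log2 scale (SE 0.36, adjusted p = 5.37e-07, and 0.0499 without the 6 cells). A Nos3 UMI was found in 22.2% and 22.8% of KLF2 LSEC and in 43.5% of vector LSEC, against 3.03%, 0% and 1.95% of T cells. Slc9a3r2, a membrane scaffold protein, had 78.9 and 86.7 CPM in KLF2 LSEC and 305 CPM in vector LSEC (adjusted p = 1.38e-08), and Pi16, a flow-associated secreted protein, had 1 UMI in the KLF2 LSEC together and 47 in vector LSEC. Thbd, the anticoagulant receptor thrombomodulin, had 38.6 and 86.7 CPM in KLF2 LSEC and 152 CPM in vector LSEC (adjusted p = 0.000385, and 0.179 without the 6 cells). Edn1, the vasoconstrictor endothelin, is among the 7 and is known to be repressed by KLF2. It had 53.2 and 46.0 CPM in KLF2 LSEC and 123 CPM in vector LSEC (adjusted p = 0.000307, and 0.0927 without the 6 cells), and 20 of its 29 UMIs in KLF2 replicate 1 lay in 1 cell. Of 11 genes of coagulation and vascular tone, a list that shares Nos3, Thbd, Edn1 and Vwf, 6 fell and 0 rose (Vwf and Nos3 fell and Tfpi, the tissue factor inhibitor, rose without the 6 cells).

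Among 14 receptors of the VEGF, Tie, BMP and Notch pathways, Bmpr2 rose and Tie1 fell with and without the 6 cells, and Acvrl1 fell with all cells. Bmpr2, the BMP type II receptor, had 237 and 182 CPM in KLF2 LSEC and 64.5 CPM in vector LSEC (adjusted p = 0.00303). Tie1, an orphan partner of the angiopoietin receptor, had 156 and 205 CPM in KLF2 LSEC and 615 CPM in vector LSEC (adjusted p = 3.48e-08).

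Antigen presentation and interferon genes were lower together. Of 13 MHC class I pathway genes tested, 12 fell and 0 rose (7 of 12 without the 6 cells), with a median log2 change of -2.07. H2-K1, a classical class I heavy chain, had 334 and 455 CPM in KLF2 LSEC and 1484 CPM in vector LSEC (log2 change -2.16, SE 0.31, adjusted p = 1.79e-10). Tap1, of the peptide transporter, had 23.9 and 12.4 CPM in KLF2 LSEC and 93.5 CPM in vector LSEC (adjusted p = 2.27e-07). Class II genes fell in 5 of 6 (4 of 5 without the 6 cells). H2-Ab1, a class II chain, had 18.4 and 28.3 CPM in KLF2 LSEC and 315 CPM in vector LSEC (adjusted p = 3.65e-24). Of 18 interferon-stimulated genes 12 fell, and Cxcl10, a chemokine for activated T cells, rose (6 and 0 of 17 without the 6 cells). Cxcl10 had 67.9 and 203 CPM in KLF2 LSEC and 27.4 CPM in vector LSEC (adjusted p = 4.65e-05, and 0.0754 without the 6 cells).

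Whether class I genes fell further than in T cells depended on the 6 cells. In T cells, H2-K1 stood at 1366 and 1185 CPM in KLF2 tumours and 1973 CPM in the vector tumour, and H2-Ab1 stood at 18.3 and 146 CPM in KLF2 T cells and 430.2 CPM in vector T cells. With all cells, 103 (1.15%) of 8971 genes were higher and 202 (2.25%) lower in the fit that sets the LSEC change against the T cell change, and 5 of 14 class I and 0 of 8 class II genes were lower. H2-K1 fell further by 1.26 on the log2 scale (SE 0.25, adjusted p = 0.001) and H2-Q7, a non-classical class I chain, by 1.71 (adjusted p = 0.00241). Without the 6 cells their adjusted p-values were 0.192 and 0.0604, and 0 of 14 class I and 0 of 8 class II genes differed, beside 177 (2.04%) of 8684 genes higher and 180 (2.07%) lower. Of 18 interferon-stimulated genes, 2 were higher and 3 lower in either version, and of the 15 LSEC identity genes 5 were higher and 0 lower with all cells and 10 and 0 without the 6. Vector LSEC also held the T and NK cell RNA given above (487 CPM), and its part in the class I and class II values was not tested. The low-gate vector cell of 7543 UMIs held 57 of 195 H2-Ab1 UMIs and 68 of 199 UMIs of H2-Aa, another class II gene. Without that cell H2-Ab1 had 225 CPM in vector LSEC. In KLF2 replicate 1, 1 cell of 10509 UMIs held 8 of 10 H2-Ab1 UMIs and 19 of 29 H2-Aa UMIs.

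Calls among hypoxia and stress genes were fewer without the 6 cells, with smaller folds for some genes and like folds for others. Without cells of 20000 or more UMIs, some hypoxia and some immediate early calls remained. The median log2 changes of these lists were then -0.145 and 0.671. Of 18 hypoxia and glycolysis genes, Vegfa, Slc2a1, Hk2, Pgk1, Bnip3 and Ndrg1 rose with all cells and 0 of 17 without the 6 (812 of 6684 genes had an unadjusted p under 0.05 on the higher side there). Hk2, hexokinase 2, had 77.1 and 83.1 CPM in KLF2 LSEC and 9.68 CPM in vector LSEC, beside 73.1, 81.8 and 20.8 CPM in T cells. Its log2 change was 2.76, and 2.14 without the 6 cells (adjusted p = 0.152), while that of Pgk1, a glycolytic kinase, was 1.28 and 0.37. Of 17 immediate early and heat shock genes, Fos, Jun, Atf3 and Ier3 rose and Nr4a1 fell, and 0 of 17 passed without the 6 cells, although the list's median log2 change was 0.41 and 0.63. Atf3, a stress transcription factor, had a log2 change of 3, and 3.21 without the 6 cells (adjusted p = 0.0805). In T cells Atf3 had 239.5 and 394 CPM in KLF2 replicates 1 and 2 and 30.2 CPM in vector replicate 2. Such genes are known to respond to tissue digestion, which took 30 min in both groups per the labels. The part of digestion in these values was not tested. Of 14 cell cycle genes, Ccnb1 rose and Mcm6 fell with all cells, and Top2a and Hmgb2 fell without the 6, of which 1 held 116 of the 136 Top2a UMIs of KLF2 replicate 1. Of 9 lipid handling genes, Acer2, a ceramidase, rose, and Fabp4 and Mgll fell (Acer2 rose and 0 fell without the 6 cells). Fabp4, a fatty acid carrier of capillary endothelium, had 1237 and 1820 CPM in KLF2 LSEC and 3411 CPM in vector LSEC.

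**Figure D5:**
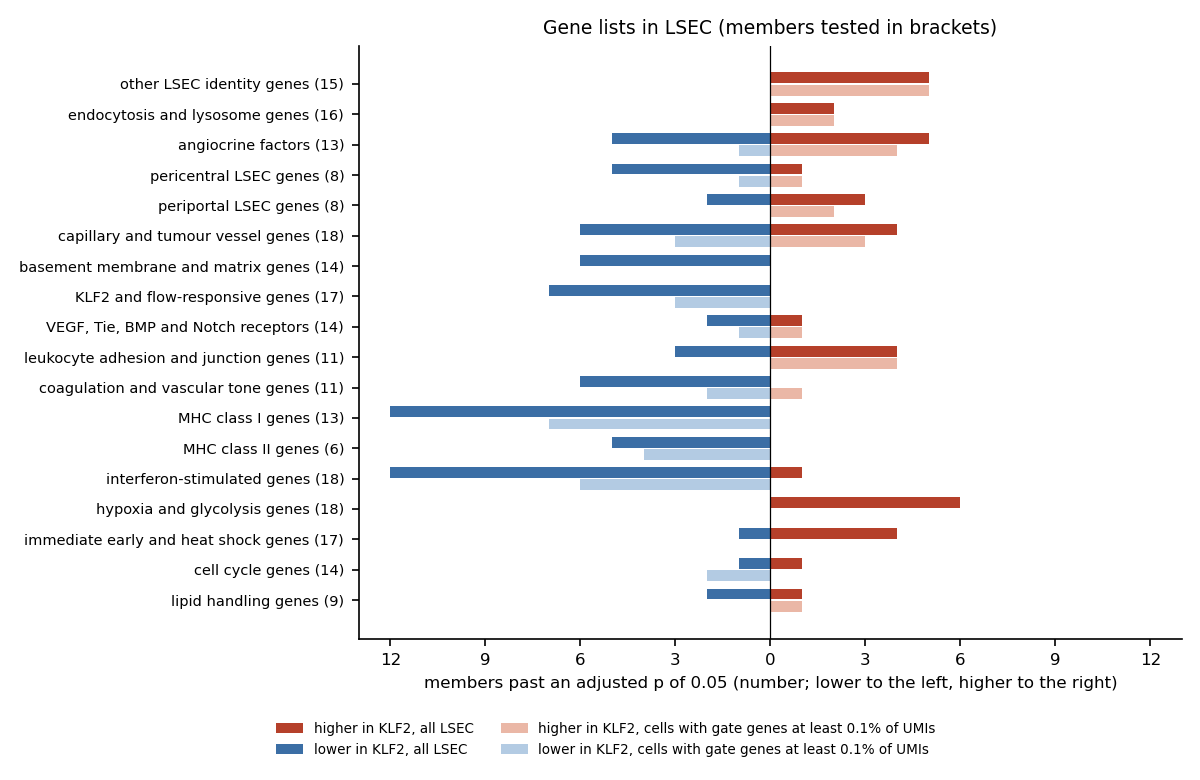
Number of members of each gene list past an adjusted p of 0.05 in LSEC (x axis, higher in KLF2 to the right, lower to the left), with the members tested in brackets. Dark bars are all LSEC and pale bars LSEC without the 6 cells with few gate UMIs. The pale bars keep the 5 LSEC identity genes and the 4 adhesion genes that rose, and lose all basement membrane, hypoxia and immediate early calls.

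The 12 deepest falls included endothelial genes and genes of other cells. Pde2a, a cyclic nucleotide phosphodiesterase of endothelium, had 3.67 and 7.08 CPM in KLF2 LSEC and 366 CPM in vector LSEC, against 0, 0 and 47.1 CPM in T cells. Depp1, a gene induced by FOXO factors, had 9.18 and 8.85 CPM in KLF2 LSEC and 150 CPM in vector LSEC. Rflnb, a filamin regulator, had 11 and 17.7 CPM in KLF2 LSEC and 210 CPM in vector LSEC, and it also fell further than in T cells (adjusted p = 4.22e-05 without the 6 cells). The T cell genes Ccl5 and Coro1a and the hepatocyte gene Fabp1 were in this group, with Ccl5 at 3.67 and 7.08 CPM in KLF2 LSEC, 298 CPM in vector LSEC and 5814, 4089 and 4205 CPM in T cells. Fabp1 had 145 CPM in vector LSEC and 306 CPM in vector T cells. Rnasek had no UMI in KLF2 LSEC and 179 CPM in vector LSEC, at least 66.2-fold lower against a floor of 3 counts over the KLF2 group, beside 4.06, 5.24 and 108 CPM in T cells. The others were Slc39a7, Psme2b, Slc26a10, Ly6c1 and H2-Ab1, with vector LSEC levels from 82.3 CPM (Psme2b) to 389 CPM (Ly6c1).

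To ask whether these changes were those of endothelium in general, the KLF2 change in LSEC was set against that in the 60, 111 and 1008 endothelial cells without sinusoidal genes, with the library as a block. With all cells 51 (0.488%) of 10453 genes were higher and 14 (0.134%) lower in this difference. Vwf fell in LSEC but had 205 and 147 CPM in the other endothelial cells of KLF2 tumours and 45.2 CPM in those of the vector tumour, a difference of -3.63 on the log2 scale (SE 0.42, adjusted p = 4.48e-06). Dnase1l3 and Mrc1 differed by 4.49 and 3.51 on the log2 scale (adjusted p = 0.000384 and 0.00464), from 0, 3.32 and 9.27 CPM and 0.883, 4.15 and 8.11 CPM in the other endothelial cells. Those cells were chosen for having no UMI of the sinusoidal genes, which may also leave out cells with other LSEC genes. Their KLF2 values of both genes lay near a floor of 3 counts, which was 2.65 and 2.49 CPM in KLF2 replicates 1 and 2. For Dnase1l3 and Mrc1 the test therefore cannot show whether the change was particular to LSEC. Adam23 had a difference of 3.08 (adjusted p = 0.0663), and Wnt2, Nos3 and H2-K1 had differences of 0.38, 0.10 and 0.50 (adjusted p from 0.843 to 1). Without the cells with few gate UMIs in either class, 0 of 7402 genes passed, with 196 higher and 166 lower at an unadjusted p under 0.05, so a difference between the kinds of endothelium was not established.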

How the data were processed

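Tumours were dissociated and sequenced with a DNBelab C Series droplet kit, per the labels' protocols. The authors deposited UMI counts per gene and cell, whole numbers that were not normalised, written by PISA 1.0 per the file headers, on GRCm38 per the submitters' processing notes. Which aligner, annotation and cell-calling rule were used is not given in the sources used here. KLF2 libraries had been deposited down to 1000 UMIs per kept cell and the vector library down to 525.

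A cell was kept with 300 or more genes and a mitochondrial share of UMIs up to 25%. No doublet caller was run. The version without 6 cells leaves out LSEC whose 10 gate genes were under 0.1% of UMIs, and another leaves out cells of 20000 or more UMIs. The members, gene lists and tests were chosen with earlier results of these data known. Both versions, the T cell comparison and the values of some list members (such as Vcam1, Selp, Thbd, Tap1 and Cxcl10) were chosen after seeing the data. UMIs were summed per library and tested with edgeR 4.0.16 (TMM, filterByExpr, quasi-likelihood, adjusted p at 0.05), which leaves 1 residual degree of freedom, moderated over all genes. The single vector library is taken to vary as the KLF2 pair does. The SE is the log2 change divided by the square root of F. The 12 genes of the rule were left out before adjustment. On simulated data with 200 changed genes the fit was tested before use. The named genes were the 12 highest rises and 12 deepest falls past 0.05 that averaged 30 CPM or more and differed 2-fold or more from vector in each KLF2 library (without Gm, Rik, mt- and ribosomal protein genes), up to 4 members per list with the smallest p (2 where none passed), and 5 per direction of the difference between the kinds of endothelium. Positions are from GENCODE M21 and promoters from RefSeq (GRCm38.p6). DESeq2 1.42.0 was an alternative. Floors of 3 counts and Wilson 95% intervals cover counting error only.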

Additional observations from a re-analysis of the deposited data

Results flagged for a closer look

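The KLF2 change in LSEC differed from that in the endothelial cells without sinusoidal genes, by the interaction test, for 51 genes upward and 14 downward. These results drew attention because 2 cell classes of the same libraries moved differently. The upward ones named were Ndufa4l2 with a difference of 7.98 on the log2 scale, Hba-a1 with 6.48, Serpina3f with 6.22, Hba-a2 with 6.22 and Hbb-bs with 5.31. The haemoglobin genes came from 1 cell of KLF2 replicate 1, which held 578 of 579 Hbb-bs UMIs, 296 of 299 Hba-a1 UMIs and 199 of 202 Hba-a2 UMIs. Hbb-bs had 1063 CPM in LSEC of that library, against 8.85 CPM in KLF2 replicate 2 and 33.9 CPM in vector replicate 2. Without KLF2 replicate 1 the log2 change of Hbb-bs in LSEC was -1.75.

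The downward ones were Npl (-4.12), Vwf (-3.63), Bmp4 (-3.52), Cyp26b1 (-3.42) and Plac8 (-2.17). Bmp4, a BMP ligand, had 82.6 and 81.4 CPM in KLF2 LSEC and 119 CPM in vector LSEC, but 173 and 274 CPM in the other endothelial cells of KLF2 tumours and 21.4 CPM in those of the vector tumour, beside 154, 107 and 4.00 CPM in T cells. Without the cells with few gate UMIs none of these 10 genes passed (adjusted p from 0.469 to 0.851).

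Against T cells, 103 genes changed more upward in LSEC and 202 more downward with all cells.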

How the results depend on the processing

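No paired analysis was possible because the KLF2 and vector libraries with a matrix share only replicate number 2. The 617 higher and 610 lower genes became 242 and 228 with at least 3 sinusoidal genes, 406 and 384 with 45 LSEC per library, 202 and 168 without the 6 cells with few gate UMIs, 436 and 361 without cells of 20000 or more UMIs, and 102 and 86 with DESeq2, which tested 4525 genes. The normalisation, the filter on low counts, the mitochondrial and gene minimums, Ptprc, and the removal of mitochondrial, rRNA-overlapping or lymphatic signal left both counts within 1.5 times. The 51 and 14 genes of the difference between LSEC and other endothelial cells became 91 and 24 without a filter, 6 and 2 with RLE, 204 and 35 with 3 sinusoidal genes, 97 and 27 without lymphatic cells 0 and 0 without the low-gate cells and 4 and 3 without cells of 20000 or more UMIs. The 51 became 31 without mitochondrial and rRNA-overlapping genes, 104 without Ptprc and 82 at 10% mitochondrial UMIs. Against T cells, 103 became 177 without the 6 cells. Genes 2-fold lower than vector numbered 664 in both KLF2 libraries and 1035 to 1100 leaving out a KLF2 replicate, and 2-fold higher ones 935 and 1290 to 1332. The causes were not tested.

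The LSEC share of all cells moved in KLF2 replicate 1 to 0.403% after thinning, in KLF2 replicate 2 to 0.477% with 3 genes and 0.306% after thinning, and in the vector library to 1.34% with 500 genes per cell, 0.333% with 3 sinusoidal genes, 0.821% without Ptprc and 0.197% after thinning. The share of endothelial cells moved to 51.2% in KLF2 replicate 1 without low-gate cells, in KLF2 replicate 2 to 23.1% with 3 genes, 24.5% after thinning and 43.5% without low-gate cells, and in the vector library to 2.06% with 3 genes and 1.87% after thinning.

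Of 111 named genes that passed and were tested without the 6 cells, 62 kept their call and 49 lost it in the same direction, of 110 without cells of 20000 or more UMIs 88 kept it, and of 106 under DESeq2 47 kept it. Podxl turned to 0.024 and Pdgfb to 0.55 with 3 sinusoidal genes, and Akt1 to -0.0245 without cells of 20000 or more UMIs. Genes that had not passed changed sign as follows: Gata4 to 0.023 (10% mitochondrial) 0.40 (without the 6 cells) and 0.608 (under 20000 UMIs), Klf2 to 0.0246 (under 20000 UMIs), Cd36 to 0.55 (3 genes), 0.31 (Ptprc), 0.52 (10% mitochondrial), 0.0454 (equal cells) 0.44 (without the 6) and 0.622 (under 20000 UMIs), and Top2a to 0.51 (equal cells). Leaving out either KLF2 replicate in turn, the log2 change ran from -0.039 to 0.838 for Ehd3, from -1.025 to 0.0899 for Klf2, from -1.26 to 5.25 for Hba-a1, from -0.44 to 4.49 for Hba-a2, from -1.75 to 4.47 for Hbb-bs, from -0.321 to 1.14 for Tfec, from -2.16 to 0.0294 for Top2a and from -1.14 to 0.0168 for Hmgb2. A fit on thinned cells was not run, since 16 vector LSEC were under the minimum of 20. With 1 vector library and 45 to 92 cells per library, genes of a few CPM rest on single UMIs (1 UMI is worth 1.61 to 1.84 CPM).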
